A study of Mus musculus with 9 samples.

Results

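Amino acid transporter genes of the solute carrier families SLC1, SLC3, SLC7 and SLC38 were followed in N2A cells, a mouse neuroblastoma line, after depletion of EXOSC3 or DDX1. The members were taken by symbol alone, as every gene whose symbol begins with Slc1a, Slc3a, Slc7a or Slc38a and a digit, except the cystine transporter gene Slc7a11. This gave 35 of the 24318 genes in the deposited tables. Slc7a6os fits the pattern by name but encodes no transporter, being the gene beside Slc7a6 on the opposite strand, so 34 members are transporter genes or their partner chains.

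RNA from 9 libraries was sequenced, 3 from cells given scramble siRNA (labelled WT), 3 from cells given EXOSC3 siRNA (siEXOSC3, labelled EXOSC3 knockdown) and 3 from cells given DDX1 siRNA (siDDX1, labelled DDX1 knockdown). All were transfected with Lipofectamine, the label for treatment reads untreated in every library, and the replicates of a condition came from separate plates. EXOSC3 is a cap subunit of the RNA exosome, the complex that degrades and processes RNA from the 3′ end. DDX1 is a DEAD-box protein and a putative RNA helicase. The comparison asks how transcripts of each kind differed once either protein was depleted, in a single tumor line and with each protein targeted by siRNA, so that effects of an siRNA on other transcripts cannot be told apart from those of the depletion.

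Amino acids cross membranes on carriers with overlapping substrates. SLC38 system A carriers take up small neutral amino acids such as glutamine and alanine with sodium, SLC1A4 and SLC1A5 exchange small neutral amino acids, and SLC1 glutamate carriers take up glutamate. SLC7 cationic carriers bring in arginine and lysine, whereas SLC7 light chains work only when joined to an SLC3 heavy chain, as in CD98, the pair of SLC3A2 and SLC7A5 that exchanges intracellular glutamine for leucine. Transcription of several of these genes is known to rise through ATF4, the transcription factor of the amino acid response, and growing tumor cells use them to supply leucine and glutamine to mTORC1.

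Levels are FPKM, fragment numbers scaled by the length of the transcript and the size of the library, so genes can be set beside each other per length. The siEXOSC3 and siDDX1 libraries lie in separate tables, each with the same 3 scramble libraries at slightly different scales (median ratios from 1.00782 to 1.01188), and every test compared libraries of the same table. A gene was tested if its mean over the 6 libraries of a table reached 1 FPKM. It is written as called, risen or fallen where limma on log2(FPKM + 1) gave a Benjamini-Hochberg adjusted p-value under 0.05 over all tested genes. Fold changes are log2 differences on that scale, with their standard error (SE), and understate the change of low genes. In libraries of whole cultures, fewer cells of a type and less RNA per cell cannot be told apart.

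The libraries matched their labels. Exosc3 stood at 15.5% ± 1.90 of scramble in siEXOSC3 and Ddx1 at 24.4% ± 2.99 in siDDX1 (SD, n = 3), while Ddx1 in siEXOSC3 and Exosc3 in siDDX1 stood at 100.5% and 97.3%. Of the 10 neuronal and neuroblastoma markers, 8 were tested, and 7 of them rose in siEXOSC3, where their summed level went from between 414 and 426 FPKM to between 690 and 751. The other tested marker was not called, and all 3 siEXOSC3 libraries lay below scramble for it (unadjusted p under 0.05, limma). In siDDX1 only Gap43, a growth cone gene, rose among them, and the sums were 411 to 421 and 443 to 462 FPKM. The 8 glial markers summed to at most 29.5 FPKM in any library, with Aqp4 at 0 and Aldoc called higher in siEXOSC3, and the 6 mesenchymal markers to at most 5.13 FPKM, with Col1a2, Col3a1 and Lum at 0 and Pdgfrb called higher in siDDX1. The part of these shifts in the values given here was not tested. The depth relative to scramble replicate 1 lay between 0.827 and 1.2, as read from the smallest steps of low genes, although only 19.1 to 23.0% of those genes lay on the step.

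Over the 6 libraries of a table, 17 of the 35 members passed the filter and 18 did not, in both tables alike. In scramble alone 16 reached a mean of 1 FPKM, and Slc1a7 did not. The levels in the order of scramble means come from the siEXOSC3 table. Slc38a2, a system A carrier, was highest at 233 ± 8.73 FPKM (SD, n = 3), followed by Slc3a2, the CD98 heavy chain, at 178 ± 6.67. Slc7a5, the leucine-importing light chain, stood at 142 ± 13.0 and Slc38a1, the second system A carrier of these cells, at 129 ± 2.44, and the libraries of these neighbours overlapped. Slc1a5, the glutamine exchanger, followed at 96.9 ± 5.41, Slc7a1, the main arginine carrier of most cells, at 64.1 ± 2.08, Slc1a4 at 56.0 ± 3.40 and Slc7a3, an arginine carrier of neurons, at 48.8 ± 2.97. Slc38a7 (40.5 ± 0.807), Slc7a6 (39.1 ± 2.18), Slc7a6os (35.9 ± 2.62) and Slc7a14 (34.2 ± 2.61) formed a run in which each gene overlapped the next. Slc38a10 closed the upper range at 26.4 ± 0.565, 5.74 times the level of Slc38a9. The 4 lowest tested members were Slc38a9 at 4.603, Slc38a6 at 3.56, Slc7a7 at 1.03 and Slc1a7 at 0.973 FPKM, and the last pair overlapped.

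**Figure D1:**
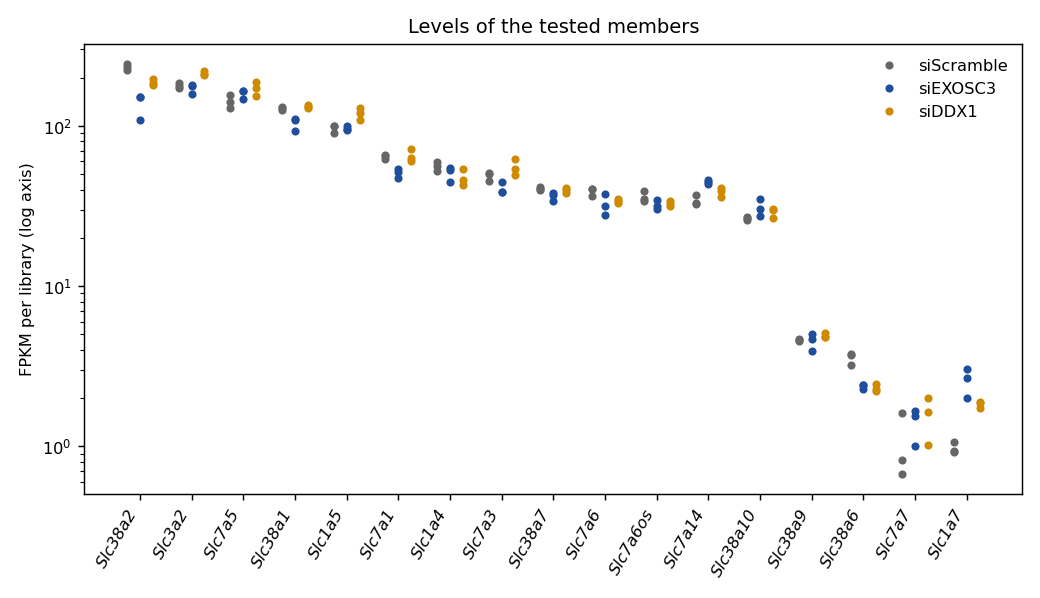
FPKM of the 17 tested members in each library on a log axis, ordered by the scramble mean (grey, siScramble of the siEXOSC3 table; blue, siEXOSC3; orange, siDDX1 of its own table, scaled separately by about 1%). Slc38a2 is highest in scramble and lower in both knockdowns, and a gap separates Slc38a10 from the 4 lowest members.

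The untested members include the carriers of other tissues. Slc1a2, the main glutamate carrier of astrocytes, Slc1a6, Slc7a2, Slc7a8, Slc7a9, Slc7a10 and Slc7a13 were listed at 0 in all 9 libraries. Of the other 11, Slc7a15 reached 0.741 FPKM in its highest library, Slc38a3, a system N glutamine carrier, 0.675, Slc38a5, the other system N carrier, 0.649, and Slc3a1, the heavy chain of the kidney cystine carrier, 0.416. The remaining 7 (Slc1a1, Slc1a3, Slc38a4, Slc38a8, Slc38a11, Slc7a4 and Slc7a12) stayed under 0.2 FPKM in every library. No change is given for these 18 genes, which lay below the filter.

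In siEXOSC3, 2 of the 17 tested members rose (11.8%, beside 16.7% of the 11242 genes tested) and 5 fell (29.4%, beside 15.7%). Slc38a2, Slc38a6, Slc7a1, Slc38a1 and Slc7a3 fell, all of them system A, cationic or less studied SLC38 carriers, and Slc1a7 and Slc7a14 rose. Slc1a7 entered the test only through its knockdown libraries, and of the 16 members with a scramble mean of at least 1 FPKM, 1 rose and 5 fell. Without scramble replicate 1 the fallen members numbered 1, and without scramble replicate 2 or 3 they numbered 3. Of all genes, 583, 932 and 806 fell without scramble replicate 1, 2 and 3, beside 1767 with every library. The median log2 fold change of the members was -0.14 and that of all tested genes -0.01. All 3 siEXOSC3 libraries lay outside the scramble range for 9 members (52.9%), 3 above and 6 below, and this held for 49.7% of all tested genes.

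In siDDX1, 3 of the 17 rose (17.6%, beside 5.61% of the 11104 genes tested) and 2 fell (11.8%, beside 5.03%). Slc1a5, Slc3a2 and Slc1a7 rose and Slc38a2 and Slc38a6 fell. Leaving out Slc1a7 for the same reason, 2 of 16 rose and 2 fell. These counts turned on siDDX1 replicate 3, without which 6 members rose and 4 fell, whereas leaving out any other single library gave 0 to 1 risen and 0 to 1 fallen. The counts over all genes moved likewise, from 623 risen and 559 fallen to 1818 and 1706 without that replicate. Each other omission gave 95 to 286 risen and 58 to 234 fallen of all genes. The members' median log2 fold change was 0.09, and that of all tested genes lay at -0.00059. All 3 siDDX1 libraries lay outside the scramble range for 8 members (47.1%), 5 above and 3 below, beside 34.7% of all tested genes. With quantile normalization the split of called members was 1 risen and 2 fallen, beside 579 risen and 573 fallen of all genes.

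Across both tables, 9 members were called in at least 1 knockdown. The share of all genes called in at least 1 knockdown was not counted, and nothing is read from this number. The values of these members in each comparison are given side by side, and nothing is read from calls that the comparisons share. Since each knockdown is set against the same scramble cells, a scramble library that is high or low for a gene moves both of its fold changes. Whether the effect of one knockdown differed from that of the other was not tested.

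**Figure D2:**
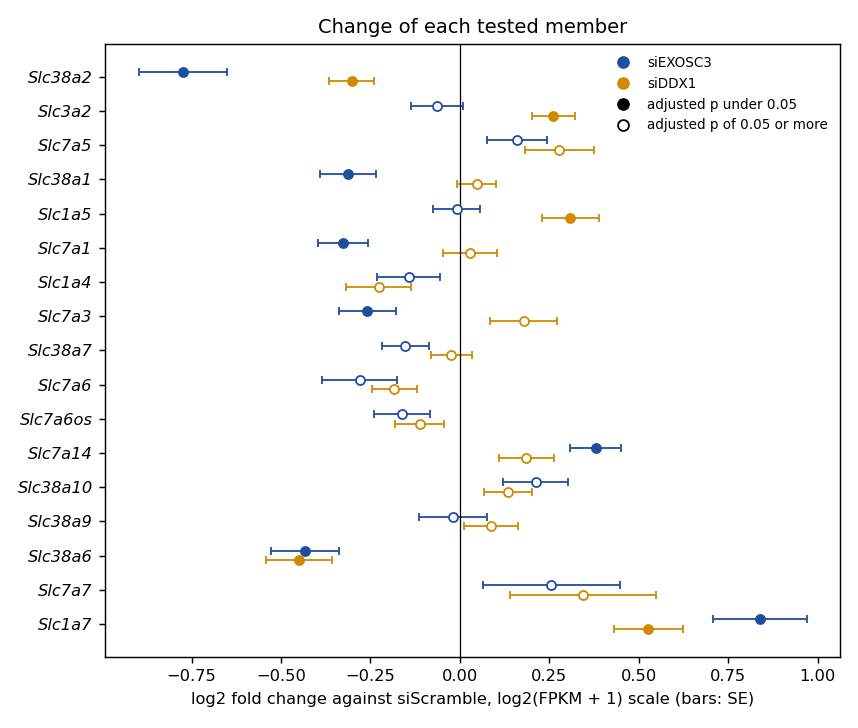
Log2 fold change against scramble of the 17 tested members in siEXOSC3 (blue) and siDDX1 (orange), with the SE as bars and filled points where the adjusted p-value was under 0.05. Slc38a2 and Slc38a6 lie left of 0 with filled points in both knockdowns and Slc1a7 lies right of it, whereas Slc3a2 and Slc1a5 are filled in siDDX1 alone.

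Because some members are known ATF4 targets, the genome around each annotated gene start was searched for the core of the element that ATF4 binds with C/EBP proteins, TGATGNAA, and for the E-box CACGTG, on both strands, from 250 bases before the start to 1000 after it. The core was present in 13.8% of the 22102 windows of protein-coding genes and in 5 of the 16 tested members with a single annotated start (Slc38a9, annotated at 2 places, was left out). Of the 9 called members, 4 held it: Slc38a2, Slc38a1, Slc7a1 and Slc7a3, each of which fell in siEXOSC3. Slc38a6, which also fell there, held no core match. Slc1a4 was the fifth gene with a match. The longer form TGATGCAAT, whose search was added after the values had been seen like the choice of this window, contains the core and was present in 0.62% of windows, among them those of Slc38a2 and Slc7a3. An E-box was present in 19.7% of windows and in 9 of the 16 member windows, 6 of them of called members, and none overlapped a core match. The matches are descriptions of the sequence and show no binding. They are printed here because they mark which of the called genes share this letter pattern, 5′ to 3′ on the strand of the gene, with 10 bases on each side and the match in capitals (a match on the other strand appears as its reverse complement), from NCBIM37, the sequence of mm9. Distances after the start include the start base itself.
Slc38a2, intron, chr15:96529598-96529626, minus strand, first base 514 bases after the start: gcccctcggtATTGCATCAgttcctcccg
Slc7a3, intron, chrX:98280505-98280533, minus strand, 837 bases after the start: agggcttgcaATTGCATCAgcgcaactgt
Slc38a1, intron, chr15:96472867-96472894, minus strand, 461 bases after the start: ggggggaaacTGATGCAAccagccctgg
Slc7a1, untranslated exon, chr5:149211397-149211424, minus strand, 67 bases after the start: ggcgcgcggcTGATGAAAccggctcgga
Slc7a1, intron, chr5:149211066-149211093, minus strand, 398 bases after the start: gcgtggtgcaTGATGCAAcagcgggagg
Slc1a4, at the start and into its untranslated exon, chr11:20232703-20232730, minus strand, first base at -4: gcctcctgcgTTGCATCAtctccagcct

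**Figure D3:**
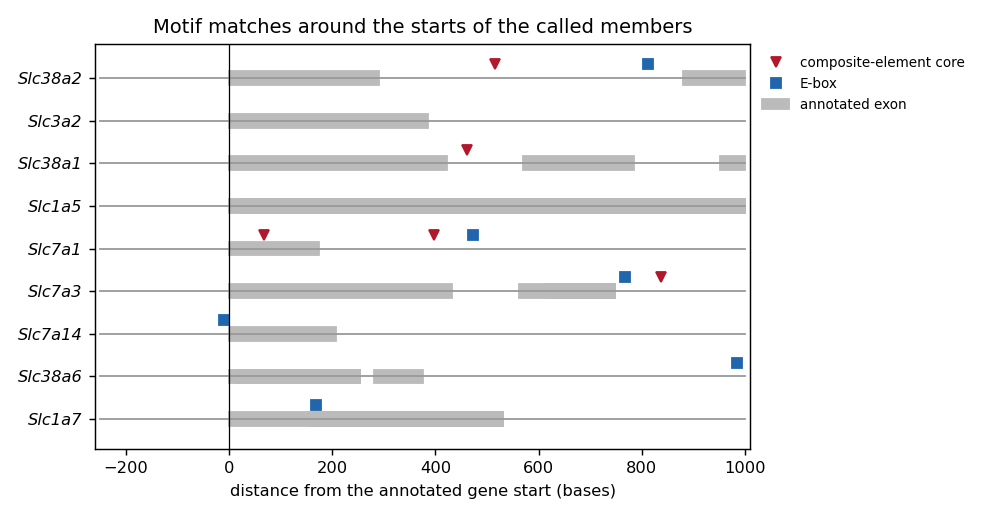
Windows from 250 bases before to 1000 bases after the annotated start of the 9 called members, with annotated exons in grey, matches to the core TGATGNAA as red triangles and E-boxes as blue squares, against the distance from the start in bases. Slc38a2, Slc38a1, Slc7a1 and Slc7a3 carry core matches after the start, and Slc3a2 and Slc1a5 carry neither motif.

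Grouped by role, the SLC38 carriers of systems A and N stood lowest against scramble in both knockdowns. Summed over their 5 genes, the level went from 362 ± 11.0 to 242 ± 33.8 FPKM in siEXOSC3, 66.8% of scramble, and from 359 ± 11.7 to 319 ± 7.25 in siDDX1, 89.0% of scramble (SD, n = 3). Nearly all of these sums was Slc38a2 and Slc38a1, since Slc38a3, Slc38a4 and Slc38a5 were below the filter. In siDDX1 the lower sum came from Slc38a2 alone, as the mean of Slc38a1 was 132 FPKM beside 127 in scramble.

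Slc38a2 (chr15:96517825-96530129, minus strand, 16 exons) encodes SNAT2, the system A carrier that cells raise when amino acids run short. Its scramble libraries in the siEXOSC3 table read 242, 232 and 224 FPKM, and the siEXOSC3 libraries 150, 152 and 109. All 3 siEXOSC3 values were below every scramble value, and replicate 3 was the lowest. The gene fell by 0.77 on the log2 scale (SE 0.123, adjusted p = 0.00391, limma), and it was called under each of the 13 alternative settings and left-out libraries. In siDDX1 the libraries read 185, 181 and 195 FPKM beside 240, 230 and 222 in scramble, again with no overlap. The log2 fold change there was -0.30 (SE 0.0631, adjusted p = 0.0237), and it was called under all 7 other settings but in only 1 of 6 fits that left out a library, the fit without siDDX1 replicate 3, with the adjusted p reaching 0.116.

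Slc38a1 (chr15:96401849-96473344, minus strand), on the same chromosome, encodes SNAT1, a system A carrier of many neurons. It was at 131, 129 and 126 FPKM in scramble and 108, 110 and 92.7 in siEXOSC3. The groups did not overlap and replicate 3 was again the lowest. It fell by 0.31 (SE 0.0777, adjusted p = 0.0183), a call lost without any 1 of the scramble libraries (adjusted p up to 0.0756). In siDDX1 it read 135, 130 and 131 FPKM beside 129, 128 and 124, with every siDDX1 value above every scramble value by a small margin. That difference of 0.048 (SE 0.0544) had an adjusted p of 0.593 and was -0.03 with quantile normalization. The ratio of Slc38a2 to Slc38a1 within a library, a quantity chosen after the values had been seen and given with no test, was 1.81 ± 0.0376 in scramble, 1.32 ± 0.122 in siEXOSC3 and 1.42 ± 0.0625 in siDDX1.

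Slc38a6 (chr12:74387766-74455036, plus strand) belongs to the SLC38 members whose substrates are less well described. It fell in both knockdowns. Its levels were 3.75, 3.21 and 3.70 FPKM in scramble, and 2.29, 2.43 and 2.40 in siEXOSC3. In the siDDX1 table scramble read 3.72, 3.19 and 3.66 and siDDX1 2.21, 2.27 and 2.44. Neither knockdown overlapped scramble, and the mean was 66.7% and 65.5% of scramble. The log2 fold changes were -0.43 (SE 0.0937, adjusted p = 0.0111) and -0.45 (SE 0.0923, adjusted p = 0.0224). The first call was lost without scramble replicate 1 (adjusted p = 0.0588), and the second without scramble replicate 1 or 3 or siDDX1 replicate 1 or 2 (up to 0.109). Trmt5, a tRNA methyltransferase gene, lies 67 bases away on the other strand.

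No call was made for the other 3 tested SLC38 genes with all libraries. Slc38a7, a lysosomal glutamine exporter, had means of 40.5 and 36.3 FPKM in the siEXOSC3 table (log2 fold change -0.15), with all siEXOSC3 libraries below scramble and an adjusted p of 0.106, and -0.02 in siDDX1. Slc38a9, the lysosomal carrier that reports arginine to mTORC1, had -0.02 and 0.09, and all 3 siDDX1 libraries were above scramble (adjusted p = 0.476). Slc38a10 had 0.21 and 0.13, with all siEXOSC3 libraries above scramble (adjusted p = 0.104), and was called higher without siEXOSC3 replicate 2 (adjusted p = 0.0161) and without siDDX1 replicate 3 (adjusted p = 0.0342). It overlaps the gene model Gm11769 on the other strand by 785 bases, and since the libraries were nondirectional, reads of overlapping genes could not be told apart by strand.

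The cationic carriers moved in both directions in siEXOSC3. Slc7a1 (chr5:149138986-149211480, minus strand), which encodes CAT-1, stood at 65.5, 61.7 and 65.1 FPKM in scramble and 51.9, 53.7 and 47.3 in siEXOSC3, with no overlap. It fell by 0.33 (SE 0.0692, adjusted p = 0.0103), and the call was lost only without scramble replicate 1, at an adjusted p of 0.0530. In siDDX1 it read 62.9, 60.1 and 71.9 beside 64.9, 61.2 and 64.3 FPKM, with 1 library inside, 1 below and 1 above the scramble range (0.03, SE 0.0758, adjusted p = 0.838).

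Slc7a3 (chrX:98274549-98281359, minus strand), which encodes CAT-3, was at 50.7, 50.3 and 45.4 FPKM in scramble and 44.4, 38.7 and 38.8 in siEXOSC3. The highest siEXOSC3 library was just under the lowest scramble library. It fell by 0.26 (SE 0.0792, adjusted p = 0.0375), the call with the highest adjusted p of the 7 in siEXOSC3. It was lost in every fit without a library but that without siEXOSC3 replicate 1, with no filter, with no intensity trend and with the replicate number as a block (adjusted p up to 0.139). In siDDX1 the libraries read 62.4, 53.6 and 49.1 beside 50.3, 49.9 and 44.8 FPKM. The groups overlapped, the log2 fold change was 0.18 (SE 0.0931, adjusted p = 0.236), and without siDDX1 replicate 3 the gene was called (adjusted p = 0.0361).

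Slc7a14 (chr3:31101832-31209300, minus strand) is a lysosomal relative of these carriers found mainly in the nervous system. It read 32.3, 37.2 and 33.1 FPKM in scramble and 46.2, 43.6 and 44.3 in siEXOSC3, every siEXOSC3 value above every scramble value. It rose by 0.38 (SE 0.0721, adjusted p = 0.00712), a call that held under all 13 alternatives. Of the 8 tested neuronal markers, 7 rose in the same libraries and 1 was lower at an unadjusted p under 0.05 (limma). A relation between these markers and Slc7a14 was not tested. In siDDX1 the values were 39.1, 41.0 and 35.9 beside 32.1, 36.9 and 32.7 FPKM, overlapping, with a log2 fold change of 0.19 (SE 0.0773, adjusted p = 0.151) that was called without siDDX1 replicate 3 (adjusted p = 0.0332). The gene model Gm15496 overlaps it on the other strand by 24792 bases.

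Slc3a2 (chr19:8781372-8797859, minus strand) encodes the heavy chain that SLC7 light chains need to reach the cell surface. It was at 176, 173 and 186 FPKM in scramble and 176, 157 and 179 in siEXOSC3, and the groups overlapped (-0.06, SE 0.0728, adjusted p = 0.524). In siDDX1 the libraries read 219, 207 and 210 FPKM beside 175, 172 and 184, all above scramble. The gene rose there by 0.26 (SE 0.0604, adjusted p = 0.0326), although the call was lost in every fit without a library but that without siDDX1 replicate 3, and with quantile normalization (adjusted p up to 0.139). Snhg1, a snoRNA host gene, lies 126 bases away on the other strand, and its own log2 fold change in siDDX1 was 0.24 with an adjusted p of 0.257.

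Slc7a5 (chr8:124405052-124431594, minus strand), the light chain LAT1, read 141, 129 and 155 FPKM in scramble and 164, 147 and 164 in siEXOSC3. In the siDDX1 table scramble read 140, 128 and 154 and siDDX1 171, 153 and 189. Both pairs of groups overlapped, since scramble replicate 3 reached into the knockdown range. The log2 fold changes were 0.16 (SE 0.0844, adjusted p = 0.173) and 0.28 (SE 0.0960, adjusted p = 0.0976), and the second was called only with the replicate number as a block (adjusted p = 0.0168). The whole of this gene, 26543 bases, is overlapped by the gene model Gm20388 on the other strand, and in nondirectional libraries reads of that model within shared exons could not be told apart. How far their exons overlap was not measured. Within a library, Slc3a2 stood at 1.26 ± 0.0712 times Slc7a5 in scramble, 1.08 ± 0.0134 times in siEXOSC3 and 1.25 ± 0.124 times in siDDX1, another ratio chosen after the values had been seen and not tested.

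The other light chains that pair with SLC3A2 gave no call with all libraries. Slc7a6, the y+LAT2 exchanger of cationic against neutral amino acids, had means of 39.1 and 32.2 FPKM in the siEXOSC3 table (-0.28, adjusted p = 0.0695) and 38.7 and 34.0 in the siDDX1 table (-0.18, adjusted p = 0.0985), with all 3 siDDX1 libraries below scramble. It was called lower without siEXOSC3 replicate 2 (adjusted p = 0.00588) and without siDDX1 replicate 3 (adjusted p = 0.0376). Slc7a7, the y+LAT1 exchanger, had 1.03 and 1.40 FPKM (0.26, adjusted p = 0.325) and 1.03 and 1.55 FPKM (0.34, adjusted p = 0.289), with scramble libraries that themselves spanned 0.673 to 1.61 FPKM. Slc7a7 overlaps Oxa1l on the other strand by 226 bases. Slc7a6os, which encodes a factor for nuclear import of RNA polymerase II, had -0.16 (adjusted p = 0.138) and -0.11 (adjusted p = 0.309).

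Both neutral exchangers of the SLC1 family were tested. Slc1a5 (chr7:17366695-17383623, plus strand), the glutamine exchanger ASCT2, stood at 99.6, 90.7 and 100.5 FPKM in scramble and 99.3, 94.7 and 94.9 in siEXOSC3, within the scramble range (-0.01, SE 0.0658, adjusted p = 0.931). In siDDX1 it read 130, 109 and 120 FPKM beside 98.8, 90.0 and 99.3, every library above scramble. It rose by 0.31 (SE 0.0791, adjusted p = 0.0445), just under the threshold, and the call was lost in every fit without a library but that without siDDX1 replicate 3, with no filter, with quantile normalization and with no intensity trend (adjusted p up to 0.133). Slc1a4, the related serine and alanine exchanger ASCT1, had means of 56.0 and 50.8 FPKM in the siEXOSC3 table (-0.14, adjusted p = 0.241) and 55.5 and 47.5 in the siDDX1 table (-0.23, adjusted p = 0.139). In siDDX1 it was called lower with the replicate number as a block (adjusted p = 0.0444) and without siDDX1 replicate 3 (adjusted p = 0.00722). The ratio of Slc1a5 to Slc1a4 within a library was 1.73 ± 0.0428 in scramble, 1.91 ± 0.198 in siEXOSC3 and 2.53 ± 0.301 in siDDX1, where all 3 libraries (2.83, 2.55 and 2.23) were above scramble, a ratio that was chosen after its values had been seen.

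Of the 5 glutamate carrier genes of the SLC1 family, Slc1a7 alone reached the filter. Slc1a7 (chr4:107640784-107686137, plus strand) encodes EAAT5, a glutamate carrier and chloride channel best known from the retina. In scramble it was near the filter at 1.07, 0.936 and 0.918 FPKM, and in siEXOSC3 it read 2.66, 1.99 and 3.02. The siDDX1 libraries read 1.74, 1.89 and 1.86 beside 1.06, 0.928 and 0.907. No knockdown library overlapped scramble, and the means were 262% and 190% of scramble. The log2 fold changes were 0.84 (SE 0.132, adjusted p = 0.00370) and 0.53 (SE 0.0964, adjusted p = 0.0158), in a low gene whose fold change is understated on this scale. The first call held in each of the 12 alternatives that tested it. The second was lost without each scramble library in turn and without siDDX1 replicate 2 (adjusted p up to 0.0726). Its scramble means of 0.973 and 0.964 FPKM were under the filter, so the gene was tested only because its knockdown libraries were high, and these p-values support no rise beyond the values given.

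**Figure D4:**
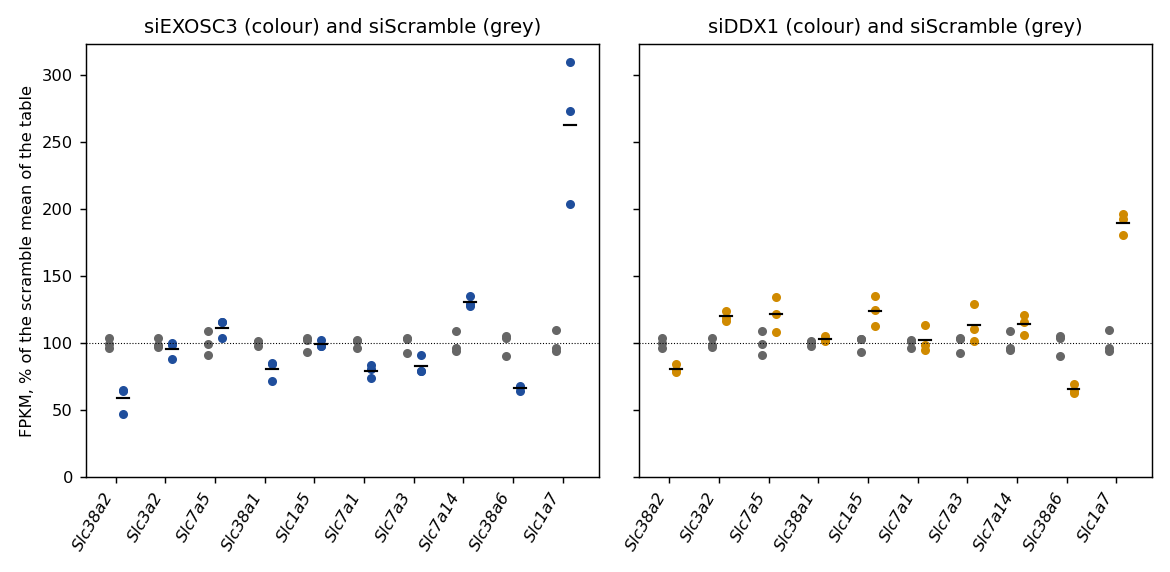
FPKM of the 9 called members and Slc7a5 in each library as a percentage of the scramble mean of the same table, siEXOSC3 in blue on the left and siDDX1 in orange on the right, with scramble in grey and knockdown means as bars. Slc38a2, Slc38a6 and Slc1a7 stand clear of scramble on both sides, and Slc3a2 and Slc1a5 do so on the right only.

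Summed over all 35 members, the level was 1135 ± 25.3 FPKM in scramble and 998 ± 39.6 in siEXOSC3 (87.9% of scramble), and 1125 ± 23.9 and 1175 ± 46.5 in the siDDX1 table (104.4%). The sums followed the highest genes. In siDDX1 the SLC3 heavy chains stood at 119.9%, the SLC7 light chains at 114%, the neutral SLC1 exchangers at 110.1% and the SLC7 cationic carriers at 109% of scramble. In siEXOSC3 the light chains stood at 105.7%, the neutral SLC1 exchangers at 96.1%, the heavy chains at 95.7% and the cationic carriers at 92.7%. The FPKM of all genes in the siDDX1 table summed to 893687, 848242 and 738926 in siDDX1 and to 731251, 745839 and 692933 in scramble. In the siEXOSC3 table these totals were 779283, 739880 and 703369 in siEXOSC3 and 737052, 751675 and 701163 in scramble. The part of these totals in the percentages by role was not tested.

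Other genes of amino acid supply were counted in the same fits. Of 20 amino acid transporter genes of other families, 8 were tested in the siEXOSC3 table, where 1 rose (12.5%, beside 16.7% of all tested genes) and 4 fell (50%, beside 15.7%), with a median log2 fold change of -0.28. Slc36a1, a lysosomal proton-coupled carrier, rose by 0.36 (adjusted p = 0.0277), and Ctns, the lysosomal cystine exporter, fell by 0.47 (adjusted p = 0.0383). In siDDX1, 0 of 7 were called by limma, beside 5.61% of all tested genes higher and 5.03% lower. At an unadjusted p under 0.05, 0 were higher and 3 lower, beside 15.1% and 15.0% of all tested genes, and the median was -0.25.

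Genes that report amino acids to mTORC1 were measured almost in full, with 32 of 33 tested. In siEXOSC3, 3 rose (9.38%, beside 16.7% of all tested genes) and 8 fell (25%, beside 15.7%). The Rag GTPase genes Rragb, Rragc and Rragd were among those that fell and Rraga among those that rose. Deptor, which encodes an inhibitor bound to mTOR, rose by 0.78 (adjusted p = 0.00359), from between 7.77 and 8.41 to between 12.2 and 17.6 FPKM. Flcn, a GTPase activator for the Rag proteins, fell by 0.70 (adjusted p = 0.0312), from 19.1 ± 3.33 to 11.6 ± 3.40 FPKM. In siDDX1 a single gene of the list was called, Rragd, which fell by 0.51 (adjusted p = 0.0211), so that 3.12% of the list fell and 0% rose, beside 5.03% and 5.61% of all tested genes. At an unadjusted p under 0.05, 3 of the 32 were higher and 3 lower in siDDX1, beside 15.1% and 15.0% of all tested genes.

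Of 13 regulators of the amino acid response, 12 were tested, with 2 risen and 1 fallen in siEXOSC3 (16.7% and 8.33%, beside 16.7% and 15.7% of all tested genes). In siDDX1, 3 rose (25%, beside 5.61%) and 0 fell (beside 5.03%), where 1 gene was lower at an unadjusted p under 0.05. Atf4 itself had means of 797 and 688 FPKM in the siEXOSC3 table (-0.22, adjusted p = 0.0913), with every siEXOSC3 library below scramble, and 789 and 814 FPKM in the siDDX1 table (0.04, adjusted p = 0.742). Ddit3, which encodes the stress factor CHOP, rose in both, by 0.61 (adjusted p = 0.0145) and 0.56 (adjusted p = 0.0420), and Ddit4, an inhibitor of mTORC1 signaling, was also called in both. Nupr1 fell by 0.29 in siEXOSC3 (adjusted p = 0.0279).

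Amino acid synthesis genes had 19 of 20 matched and tested. In siEXOSC3, 3 rose (15.8%) and 4 fell (21.1%), beside 16.7% and 15.7% of all tested genes. Bcat2, a branched-chain aminotransferase, rose by 0.53 (adjusted p = 0.00969), and Gpt2, the mitochondrial alanine aminotransferase, fell by 0.51 (adjusted p = 0.0143). In siDDX1, 5 rose (26.3%, beside 5.61% of all tested genes) and 0 fell (beside 5.03%), also with 0 lower at an unadjusted p under 0.05, and Bcat2 and the asparagine synthetase gene Asns were among those that rose. Pycr1, a proline synthesis gene, rose by 0.60 (adjusted p = 0.00746), from between 6.63 and 7.21 to between 9.96 and 11.8 FPKM.

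**Figure D5:**
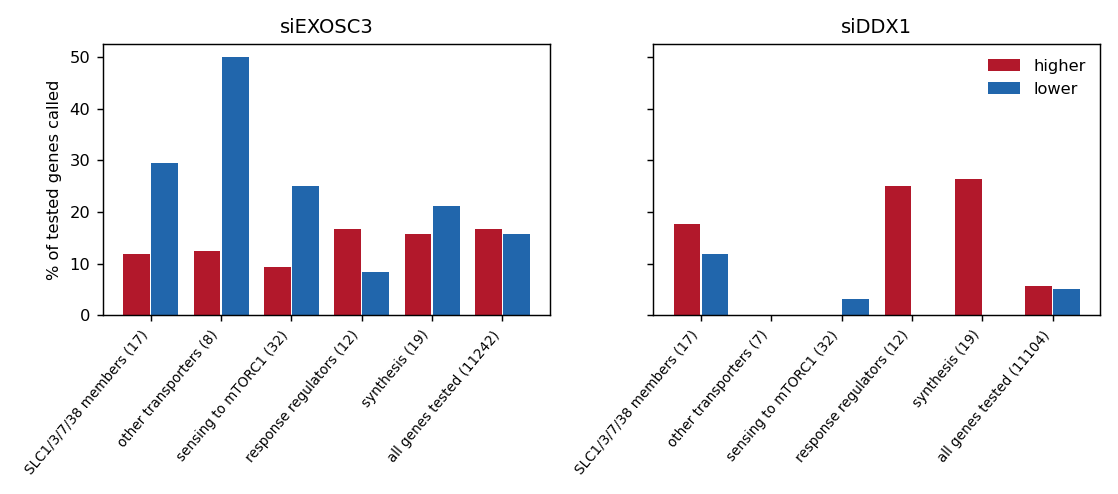
Share of tested genes called higher (red) or lower (blue) among the members, the 4 other amino acid lists and all tested genes, in siEXOSC3 (left) and siDDX1 (right), with the number tested in brackets. The falling share of the members is 29.4% in siEXOSC3 beside 15.7% of all genes, and in siDDX1 the synthesis list has 26.3% called higher and 0 called lower.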

How the data were processed

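The 9 RNA-seq libraries were grouped by the labels, 3 per condition. Ribosomal RNA was removed and the libraries were nondirectional. The authors aligned reads to mm9 with TopHat2 version 2.1.0 and ran Cuffdiff version 2.2.1, and they deposited FPKM per gene and library in 2 tables of 6 libraries each. The gene annotation and the library normalization used by the authors are not given in the sources used here, and 0 columns of values were left out. FPKM holds no read numbers, so depth is known only relative to scramble replicate 1.

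From the deposited FPKM, log2(FPKM + 1) of genes with a mean of at least 1 was fitted in R version 4.3.3 by limma, version 3.58.1 (lmFit, eBayes with an intensity trend, no covariates), two-sided, with Benjamini-Hochberg adjustment over each whole table and a threshold of 0.05. The code was checked on simulated data. The smallest p that exact permutation of 3 against 3 libraries allows is 0.1. Deviations of same-numbered libraries correlated at 0.0346, -0.31 and -0.126 in the siEXOSC3 table and at -0.0121, 0.379 and 0.372 in the siDDX1 table. Since not every pair in either table was above 0.1, replicate numbers were not taken as pairs. Alternatives were a pseudocount of 0.1, no filter, a mean of at least 5, median centring, quantile normalization, a block for the replicate number, no intensity trend, and leaving out each library.

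Members, lists, markers and tests were chosen with earlier results of these data known. Values in every library are given for members called in either knockdown, for Slc7a5 and Slc3a2, and for members whose groups did not overlap with a log2 fold change of at least 0.5 in size. The other tested members are given by means and fold changes, and untested ones by their highest FPKM. Of the other lists, the called gene with the largest rise and fall in each knockdown is named, with Atf4 and the targets, and the further called genes were named after their values had been seen. The lists were transporters of other families, sensing to mTORC1, response regulators and synthesis. Positions and sequence came from GENCODE vM1 on NCBIM37. Figures were drawn with matplotlib version 3.10.9.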

Additional observations from a re-analysis of the deposited data

Results flagged for a closer look

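Slc38a1, the gene for the system A carrier SNAT1, stood out because its 3 siEXOSC3 libraries were all below the scramble libraries of their table (log2 fold change -0.31) while its 3 siDDX1 libraries were all above those of theirs (0.048, and -0.03 with quantile normalization). The difference between the knockdowns was not tested, and the siDDX1 value had an adjusted p of 0.593 with limma. Of the 11054 genes tested in both tables, 310 (2.8%) lay on opposite sides of scramble in this way, 167 above in siEXOSC3 and below in siDDX1 and 143 the other way round. The same scramble libraries serve both comparisons.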

How the results depend on the processing

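No called member changed sign under any alternative. In siEXOSC3 the calls of Slc38a2 and Slc7a14 held in every alternative, as did that of Slc1a7 where it was tested. Slc1a7 passed the filter of 1 FPKM only through its knockdown libraries, and with no filter it was tested whatever its level. In siDDX1 0 of the 5 calls held throughout. With a mean of at least 5 FPKM, 1 member rose in siEXOSC3 and 1 fell in siDDX1, since Slc1a7 and Slc38a6 then go untested. With quantile normalization 1 member rose in siDDX1 (the cause was not tested). Leaving out a library gave 2 to 3 members risen and 1 to 5 fallen in siEXOSC3, and 0 to 6 risen and 0 to 4 fallen in siDDX1. The same fits gave 1027 to 2379 of all genes risen and 583 to 2508 fallen in siEXOSC3, and 95 to 1818 risen and 58 to 1706 fallen in siDDX1, beside 1877, 1767, 623 and 559 with every library. The upper ends in siDDX1 (6 and 4 members, 1818 and 1706 genes) all came from the fit without siDDX1 replicate 3, and those for all genes in siEXOSC3 from the fit without siEXOSC3 replicate 2, while every other omission gave fewer genes than the full set (the cause was not tested). With no filter 387 genes rose and 330 fell in siDDX1, with more genes in the adjustment. With the replicate number as a block, 1390 genes rose and 1059 fell in siEXOSC3 and 1085 rose and 808 fell in siDDX1, and 2 members rose and 4 fell in siEXOSC3 and 4 rose and 3 fell in siDDX1. The numbers mark no shared origin in the labels, and not every library correlated best with its own number.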
